A study of Homo sapiens with 4 samples.

Results

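The genes described here are the 10 best known components of the m6A system, chosen by name: the writers METTL3, METTL14, WTAP, VIRMA and ZC3H13, the erasers FTO and ALKBH5, and the readers YTHDF1, YTHDF2 and YTHDF3. Each symbol matched 1 Ensembl ID, and all 10 were found among the 78932 genes of the count table. They were followed in RPMI 8226, a human multiple myeloma cell line, 72 hours after transfection with 5 nM of an antisense oligonucleotide of locked nucleic acid chemistry (LNA ASO) that targets the mRNA of the RNA-binding protein CELF2, or with a control LNA ASO. A dose for the control ASO is not stated in the labels, and none states whether the 2 libraries of a group are separate cultures. The p-values therefore rest on the spread between these libraries, possibly a technical one. The cells are 1 line, and all 4 libraries were made from transfected cells.

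N6-methyladenosine (m6A) is the most common internal modification of mammalian mRNA. A nuclear complex built on METTL3 and METTL14 adds the methyl group, FTO and ALKBH5 can take it off, and proteins with a YTH domain bind methylated sites and steer the mRNA towards decay or translation. In blood cancers several of these proteins are known as dependencies, METTL3, FTO and YTHDF2 among them. The counts measure the mRNAs that encode these proteins and not protein level, enzyme activity or m6A itself.

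Total counts were 26061900 and 23599190 in the CELF2 ASO libraries and 29161298 and 24493148 in the control ASO libraries. CELF2 itself was at 56.6 and 48.8 CPM with the CELF2 ASO and at 128 CPM in both control libraries, and the log2 fold change was -1.28 ± 0.09 (standard error, edgeR adjusted p = 2.88e-05). CPM is the read count relative to the TMM-scaled library size, and log2 fold changes are CELF2 ASO over control ASO throughout. Of 10 plasma cell markers, all had at least 10 counts in every library, with summed levels of 3910 to 4470 CPM with the CELF2 ASO and 3520 to 3770 CPM with the control ASO. Single plasma cell markers moved both ways, however, and 8 of the 10 were called, as were 63.3% of all coding genes tested. CD38, IRF4, POU2AF1 and SLAMF7 were higher, with log2 fold changes of 1.28, 0.77, 0.69 and 0.5, and SDC1, TNFRSF17, PRDM1 and MZB1 were lower, at -1.22, -1, -0.89 and -0.45 (edgeR adjusted p of 0.0445 or less for each). Summed T and NK cell markers were at 0.649 and 0.711 CPM with the CELF2 ASO and at 0.643 and 0.554 CPM with the control ASO. Myeloid markers summed to 2.81 and 3.22 CPM with the CELF2 ASO and to 3.75 and 3.96 CPM with the control ASO, with LYZ at 0 in all 4 libraries. Stromal and epithelial markers summed to 168 and 178 CPM with the CELF2 ASO, against 282 and 280 CPM with the control ASO, with VIM, EPCAM and COL1A1 called lower and KRT8 called higher. The part of these marker changes in the results below was not tested. The CELF2 ASO pair varied more, its biological coefficient of variation being 13.7%, against 3.64% for the control pair.

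Of the 10 m6A genes, 2 rose and 4 fell with the CELF2 ASO, and 4 did not pass the threshold of adjusted p under 0.05 in edgeR's quasi-likelihood test. ALKBH5 and ZC3H13 rose, while YTHDF2, YTHDF1, FTO and WTAP fell. Calls were common across the transcriptome, 55.5% of 19511 genes tested and 63.3% of 12754 protein-coding genes, so the 60% called here is near the background and by itself says nothing particular about m6A genes. The background by direction was 27.5% higher and 27.9% lower over all genes, and 28% higher and 35.4% lower over coding genes. The groups did not overlap for any of the 10 genes, as for 79.6% of all genes and 84% of coding genes. Most of the changes were small. The median absolute log2 fold change was 0.25 over the 10 genes and 0.56 over coding genes, and only YTHDF2 exceeded the coding median. The signed median was -0.1, against 0.04 over all genes tested and -0.05 over coding genes. In bulk RNA, fewer cells with a transcript and less of it per cell cannot be told apart.

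**Figure D1:**
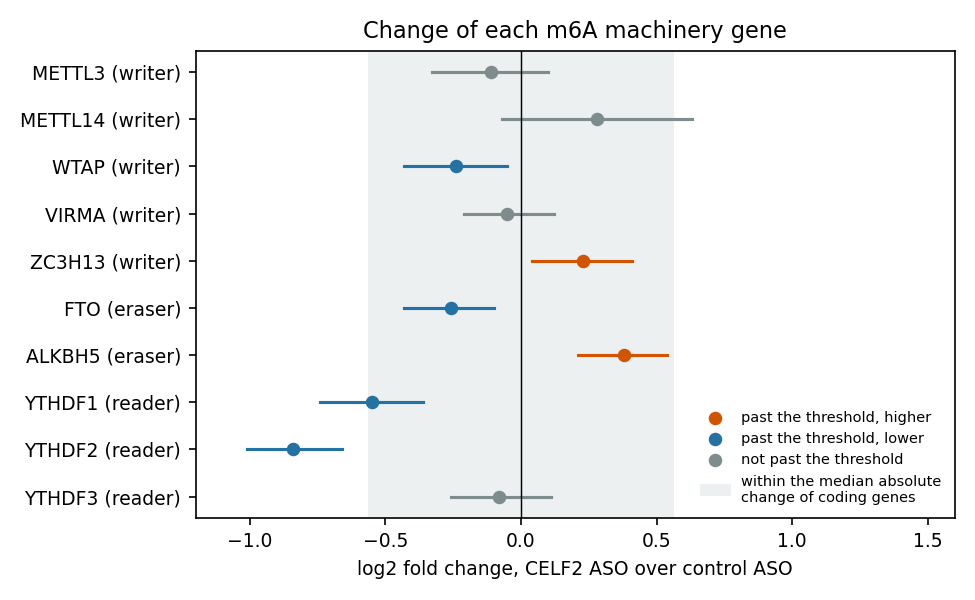
Log2 fold change of each m6A gene (point) with its 95% confidence interval (line), CELF2 ASO over control ASO, coloured by whether it passed the threshold and in which direction. The shaded band spans the median absolute change of coding genes, 0.56 in either direction, and the point for YTHDF2 at -0.84 is the 1 outside it.

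The strongest changes were in the cytoplasmic readers. YTHDF2 and YTHDF1 fell and YTHDF3 did not pass. YTHDF2 (ENSG00000198492, GRCh38 chromosome 1, 28736621 to 28769775, plus strand) recruits the CCR4-NOT deadenylase to methylated mRNAs and so promotes their decay. It had 3441 and 3115 counts with the CELF2 ASO and 6539 and 5192 counts with the control ASO. In CPM these were 124 and 130 with the CELF2 ASO, against 234 and 221 with the control ASO. Both CELF2 ASO libraries were well below both control libraries, and neither pair spread by more than a small part of the gap. The means were 127 ± 4.45 CPM with the CELF2 ASO and 227 ± 8.73 CPM with the control ASO (SD, n = 2 each), which is 1.79-fold lower, giving a log2 fold change of -0.84 (SE 0.07, 95% interval -1.01 to -0.66) (edgeR adjusted p = 7.86e-05). The fall placed YTHDF2 at the 16.7th percentile of coding genes ordered by log2 fold change. A processed pseudogene, YTHDF2P1, shares 3.26% of the 100-base words of the longest YTHDF2 transcript and had the same log2 fold change of -0.84 (edgeR adjusted p = 0.00492) at 2.7 and 3.1 CPM with the CELF2 ASO and 5.43 and 4.94 CPM with the control ASO. How reads that map to both were assigned is not given in the sources used here.

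YTHDF1 (ENSG00000149658, chromosome 20, 63195429 to 63216234, minus strand) is a paralog best known for promoting translation of methylated mRNAs, although its separation from YTHDF2 in function is debated. It was measured at 85 and 77.8 CPM in the CELF2 ASO libraries and at 123 and 116 CPM in the control ASO libraries. The 2 pairs were again clearly apart. The level was 1.47-fold lower with the CELF2 ASO, giving a log2 fold change of -0.55 (SE 0.08, 95% interval -0.74 to -0.36) (edgeR adjusted p = 0.000844). YTHDF1 and YTHDF2 were the only members that kept their call and direction under all 14 other settings, with log2 fold changes between -0.62 and -0.43 for YTHDF1 and between -0.94 and -0.72 for YTHDF2.

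YTHDF3 (ENSG00000185728, chromosome 8), the third paralog, was at 47.8 and 52.5 CPM with the CELF2 ASO and at 52.9 and 53 CPM with the control ASO. CELF2 ASO library 2 was almost level with the control pair, and library 1 lay a little lower. The log2 fold change was -0.08 with a 95% interval of -0.26 to 0.11 and did not pass (edgeR adjusted p = 0.441). That interval does not reach the intervals of YTHDF1 or YTHDF2, though the difference between paralogs was not tested as such. Without CELF2_LNA_ASO replicate 2 the value was -0.16 and passed (adjusted p = 0.0292), and with offsets for exon length and GC content it was -0.32 (adjusted p = 0.00557). No 100-base word is shared between the 3 paralogs, and the reads are 150 bases long.

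Within each library the balance of the 3 readers shifted. Levels between genes were compared as CPM per kilobase of annotated exon. YTHDF2 made up 49% and 51.3% of the summed YTHDF level in the CELF2 ASO libraries and 57% and 56.7% in the control ASO libraries. YTHDF3 made up 11.8% and 12.9% with the CELF2 ASO and 8.08% and 8.51% with the control ASO. The share of YTHDF1 was 39.2% and 35.8% with the CELF2 ASO and 35% and 34.8% with the control ASO, and its spread within the CELF2 ASO pair was larger than the gap between that pair and the controls. The size of the shares depends on the length used. With the longest annotated transcript, YTHDF2 made up 54.8% and 57% with the CELF2 ASO and 62.8% and 62.5% with the control ASO. With 2 libraries against 2, an exact permutation test of any such share cannot go below p = 0.33, so these are given as values only.

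**Figure D2:**
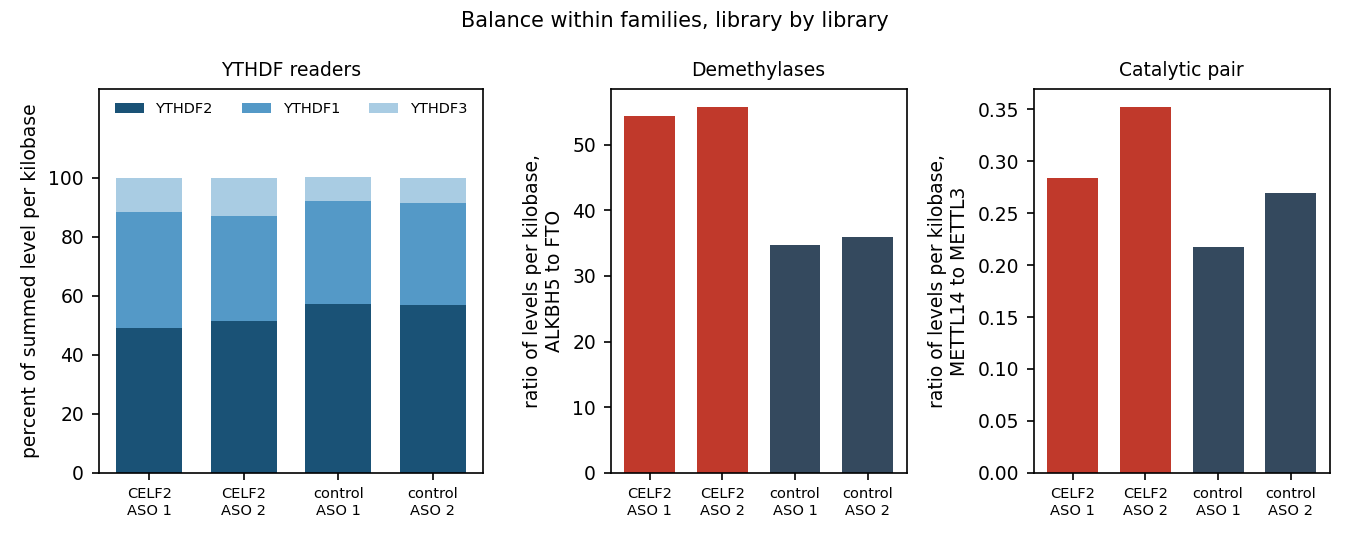
Left, share of each YTHDF reader in the summed YTHDF level per kilobase, with libraries on the x axis. The middle and right panels give the ratio of ALKBH5 to FTO and of METTL14 to METTL3 per kilobase in each library, and the ALKBH5 to FTO ratio was 54.3 and 55.7 in the CELF2 ASO libraries and 34.7 and 35.9 in the control ASO libraries.

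Because YTHDF1 and YTHDF2 fell together and ALKBH5 rose, the bases before the annotated starts of these 3 genes are shown for comparison. They are RefSeq promoter sequences on GRCh38.p14, written in the direction of the gene, and they end at the RefSeq start or before the first annotated GENCODE 29 exon. The YTHDF1 stretch is chr20:63216235-63216381 on the minus strand, YTHDF2 is chr1:28736374-28736620 on the plus strand and ALKBH5 is chr17:18183578-18183827 on the plus strand, inside the wider GENCODE span of that gene. Capitals mark matches to an E-box (CACGTG, the letters bound by MYC and MAX) and to a GC box (GGGCGG or its reverse complement CCGCCC, the letters bound by SP1).
YTHDF1: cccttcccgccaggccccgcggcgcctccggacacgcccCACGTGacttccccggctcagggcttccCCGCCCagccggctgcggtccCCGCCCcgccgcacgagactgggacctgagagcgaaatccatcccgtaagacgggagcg
YTHDF2: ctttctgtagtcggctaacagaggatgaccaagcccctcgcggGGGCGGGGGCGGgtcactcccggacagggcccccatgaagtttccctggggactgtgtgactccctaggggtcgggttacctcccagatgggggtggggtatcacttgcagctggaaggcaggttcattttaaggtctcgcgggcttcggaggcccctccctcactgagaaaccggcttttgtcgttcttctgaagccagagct
ALKBH5: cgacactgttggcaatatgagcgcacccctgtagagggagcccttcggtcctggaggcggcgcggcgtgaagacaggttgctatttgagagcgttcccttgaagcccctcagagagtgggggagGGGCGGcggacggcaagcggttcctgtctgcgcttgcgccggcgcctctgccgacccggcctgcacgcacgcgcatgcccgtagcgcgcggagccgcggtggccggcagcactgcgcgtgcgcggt

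The table of promoters matched 8 of the 10 genes, and VIRMA and YTHDF3 had no entry. Motifs were searched on both strands in the 250 bases before each start. YTHDF1 was the 1 gene of the 8 with an E-box, which begins 211 bases before its RefSeq start and which 6.34% of all 35116 promoters hold. Distances are to the RefSeq start, which for YTHDF1 and YTHDF2 lies beyond the end of the printed stretch. A GC box lay before WTAP, ALKBH5, YTHDF1 and YTHDF2, and 42.6% of all promoters hold one. Those printed for YTHDF2 begin 207 and 201 bases before the first of its RefSeq starts, directly after each other, and no printed matches overlap. The CCAAT box (CCAAT) was found before METTL14, WTAP, ZC3H13 and YTHDF2 and in 32% of all promoters, the match for YTHDF2 lying before the second of its 2 RefSeq starts, whose window is not printed. The ETS letters (CCGGAA) lay before METTL3, METTL14 and ZC3H13 and in 14.5% of all promoters. The CRE (TGACGTCA), the CHOP-ATF composite (TGATGNAA), the NRF1 motif and the YY1 motif (AAGATGGCG) were in no window of the 8 genes and in 1.65%, 3.14%, 1.03% and 0.652% of all promoters. WTAP and YTHDF2 have 2 starts each, and a gene was counted if any of its starts had a match. The shares of all promoters are per start. A match is a run of letters and not a bound site.

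The 2 demethylases moved in opposite directions. ALKBH5 (ENSG00000091542, chromosome 17, 18183078 to 18209954, plus strand), a nuclear dioxygenase that removes m6A from mRNA, had the largest counts of the 10 genes, 12572 and 11040 with the CELF2 ASO and 9775 and 8353 with the control ASO. Its level was 453 and 462 CPM in the CELF2 ASO libraries and 349 and 356 CPM in the control ASO libraries. Libraries of the same group differed by far less than the groups did. The rise was 1.3-fold, giving a log2 fold change of 0.38 (SE 0.07, 95% interval 0.21 to 0.54) (edgeR adjusted p = 0.0029). Leaving out control_LNA_ASO replicate 1 ended this call (0.33, adjusted p = 0.12), as did leaving out replicate 2 (0.36, adjusted p = 0.0877), fits in which only the CELF2 ASO pair informs the spread. An antisense gene, ENSG00000266677, overlaps 11.2% of the ALKBH5 exon bases and had 2 to 10 counts per library.

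FTO (ENSG00000140718, chromosome 16, 53701692 to 54158512, plus strand), a demethylase of m6A and of the cap-adjacent m6Am, stood at 55.9 and 55.6 CPM with the CELF2 ASO and at 67.5 and 66.4 CPM with the control ASO. The pairs were tight and did not overlap. FTO fell by 0.26 on the log2 scale, 1.2-fold lower (SE 0.07, edgeR adjusted p = 0.0156). Scaling by library totals ended the call (-0.15, adjusted p = 0.133), and so did fits without control_LNA_ASO replicate 1 (-0.28, adjusted p = 0.157) or without control_LNA_ASO replicate 2 (-0.3, adjusted p = 0.129). With exon length and GC offsets the fall was larger, -0.56 (adjusted p = 0.000283). Per kilobase of exon, the ratio of ALKBH5 to FTO was 54.3 and 55.7 with the CELF2 ASO and 34.7 and 35.9 with the control ASO. The size of that ratio depends on the length taken for FTO, and it was 34.7 and 35.6 with the CELF2 ASO and 22.1 and 22.9 with the control ASO when the longest annotated transcript was used.

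**Figure D3:**
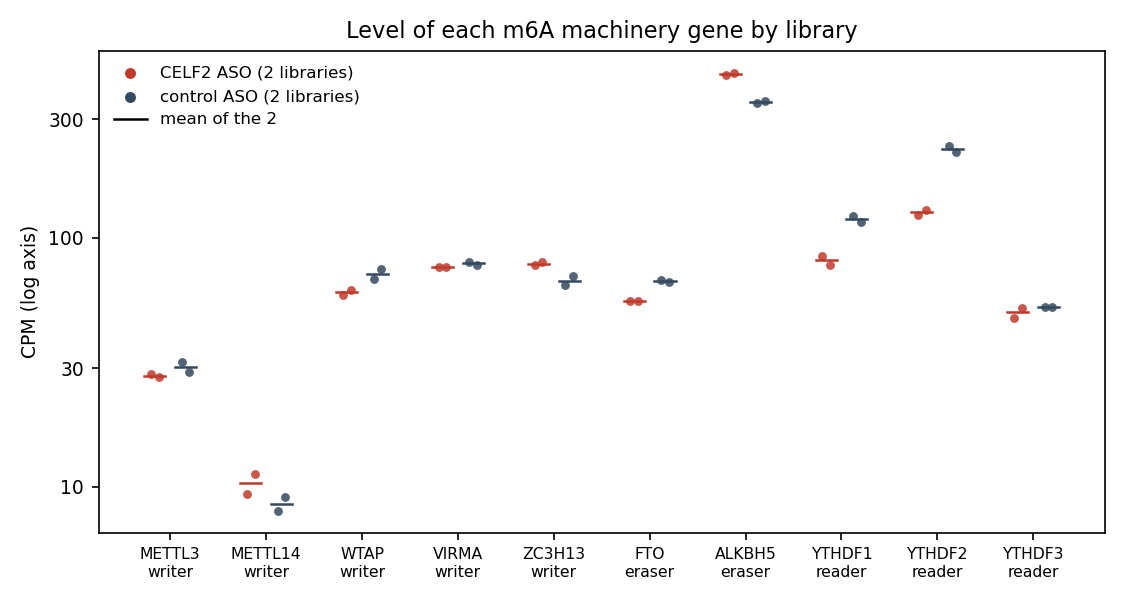
CPM of each m6A gene on a log axis, CELF2 ASO libraries left and control ASO libraries right, each point 1 library and each bar the mean of 2. ALKBH5 lies between 453 and 462 CPM with the CELF2 ASO and between 349 and 356 CPM with the control ASO, and METTL14 is the lowest of the 10 in every library.

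As reported, the writer complex changed little, though this depended on the setting. Of its 5 members, ZC3H13 rose, WTAP fell and 3 did not pass, with a median log2 fold change of -0.05. The 40% called compares with 63.3% of coding genes. With exon length and GC offsets, METTL3, WTAP and VIRMA passed as lower and ZC3H13 did not pass. METTL3 (ENSG00000165819, chromosome 14, 21498133 to 21511375, minus strand), the catalytic subunit, was at 28.4 and 27.7 CPM with the CELF2 ASO and at 31.7 and 29 CPM with the control ASO. The gap between the groups was smaller than the distance between the 2 control libraries. Its log2 fold change was -0.11 with a 95% interval of -0.33 to 0.1 (edgeR adjusted p = 0.33). With exon length and GC offsets it was -0.3 and passed (adjusted p = 0.0211), and with library totals alone it was 0 (adjusted p = 0.986). On the opposite strand, TOX4 overlaps 6.58% of the METTL3 exon bases and fell by 0.49 on the log2 scale (edgeR adjusted p = 0.00417). Without a stated strand setting, reads of the shared bases cannot be assigned to either gene.

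METTL14 (ENSG00000145388, chromosome 4, 118685368 to 118715433, plus strand), the RNA-binding partner of METTL3, had the fewest reads, 260 and 271 counts with the CELF2 ASO and 224 and 213 counts with the control ASO. These were 9.37 and 11.3 CPM with the CELF2 ASO and 8 and 9.08 CPM with the control ASO. CELF2 ASO library 1 was nearer to control library 2 than to its own partner. The log2 fold change was 0.28 with the widest interval of the 10 genes, -0.07 to 0.63 (edgeR adjusted p = 0.152). Without CELF2_LNA_ASO replicate 1 it was 0.42 and passed (adjusted p = 0.00274), and with exon length and GC offsets it was 0.02 (adjusted p = 0.922). The ratio of METTL14 to METTL3 per kilobase of exon was 0.284 and 0.352 with the CELF2 ASO and 0.217 and 0.269 with the control ASO. The gap between the nearest libraries of the 2 groups was smaller than the spread within either pair. The size of the ratio depends on the length used. With the longest annotated transcript it was 0.125 and 0.155 with the CELF2 ASO and 0.0955 and 0.119 with the control ASO.

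WTAP (ENSG00000146457, chromosome 6, 159725585 to 159756319, plus strand), which holds the catalytic pair in nuclear speckles, was at 59.2 and 61.8 CPM with the CELF2 ASO and at 68.1 and 75.1 CPM with the control ASO. The fall was 1.18-fold, giving a log2 fold change of -0.24 (SE 0.08, edgeR adjusted p = 0.0366). That call was lost under 8 of the 14 other settings, with scaling by library totals (-0.13, adjusted p = 0.218) and in fits without control_LNA_ASO replicate 1 (-0.34, adjusted p = 0.0777) or without control_LNA_ASO replicate 2 (-0.2, adjusted p = 0.353) among them. With exon length and GC offsets it was kept, at -0.42 (adjusted p = 0.00264). SOD2, on the opposite strand, shares 4.64% of the WTAP exon bases in GENCODE 29. The count table holds SOD2 under another Ensembl ID, matched here by symbol alone, and that entry fell by 0.76 on the log2 scale (edgeR adjusted p = 0.000252).

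ZC3H13 (ENSG00000123200, chromosome 13, 45954465 to 46052759, minus strand), a zinc finger protein that keeps the complex in the nucleus, was at 77.6 and 79.8 CPM with the CELF2 ASO and at 64.5 and 70.1 CPM with the control ASO. The rise was 1.17-fold, giving a log2 fold change of 0.23 (SE 0.08, edgeR adjusted p = 0.0395). It did not survive without control_LNA_ASO replicate 1 (0.14) or without control_LNA_ASO replicate 2 (0.26), and its sign turned with exon length and GC offsets (-0.05, adjusted p = 0.623). The call on ZC3H13 was also lost with RLE scaling (adjusted p = 0.0609), no filter (adjusted p = 0.214) and DESeq2 (adjusted p = 0.184). A fit with the replicate number as a block lost it too (adjusted p = 0.0598). VIRMA (ENSG00000164944, chromosome 8), the large scaffold linked to methylation near stop codons, was at 76.4 and 76.6 CPM with the CELF2 ASO and at 80.1 and 78.2 CPM with the control ASO. Its log2 fold change was -0.05 with a 95% interval of -0.21 to 0.12 (edgeR adjusted p = 0.586), and with exon length and GC offsets it was -0.34 and passed (adjusted p = 0.00366).

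Ordered by level per kilobase of exon in the control ASO libraries, ALKBH5 came first and METTL14 last. ALKBH5 averaged 143 ± 1.94 with the CELF2 ASO and 111 ± 1.5 with the control ASO, in CPM per kilobase (SD, n = 2 each). YTHDF2 followed with 33 ± 1.15 with the CELF2 ASO and 58.9 ± 2.26 with the control ASO, and YTHDF1 with 24.7 ± 1.55 with the CELF2 ASO and 36.1 ± 1.45 with the control ASO. The other 7 genes lay between 1.51 and 9.43 CPM per kilobase with the CELF2 ASO and between 1.24 and 11.2 CPM per kilobase with the control ASO, in the control order WTAP, YTHDF3, VIRMA, ZC3H13, METTL3, FTO and METTL14. With the CELF2 ASO, ZC3H13 at 7.56 and 7.78 CPM per kilobase overlapped YTHDF3 at 7.76 and 8.52 CPM per kilobase, and it stood above VIRMA at 7.1 and 7.11 CPM per kilobase. The middle of the order depends on the length used, since METTL3 stood in the 6th place in both groups when the longest transcript was taken. Genes with a profile over the 4 libraries most like that of YTHDF2, by the distance between centred log2 CPM profiles among 8165 other coding genes, were SIK3, UTP14A and SPATA2 at distances of 0.0103, 0.0251 and 0.0262. Those most like ALKBH5 were ORMDL1, BHLHE40 and COMMD2 at 0.0226, 0.0242 and 0.0267. With 4 libraries, such likeness is a description only.

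**Figure D4:**
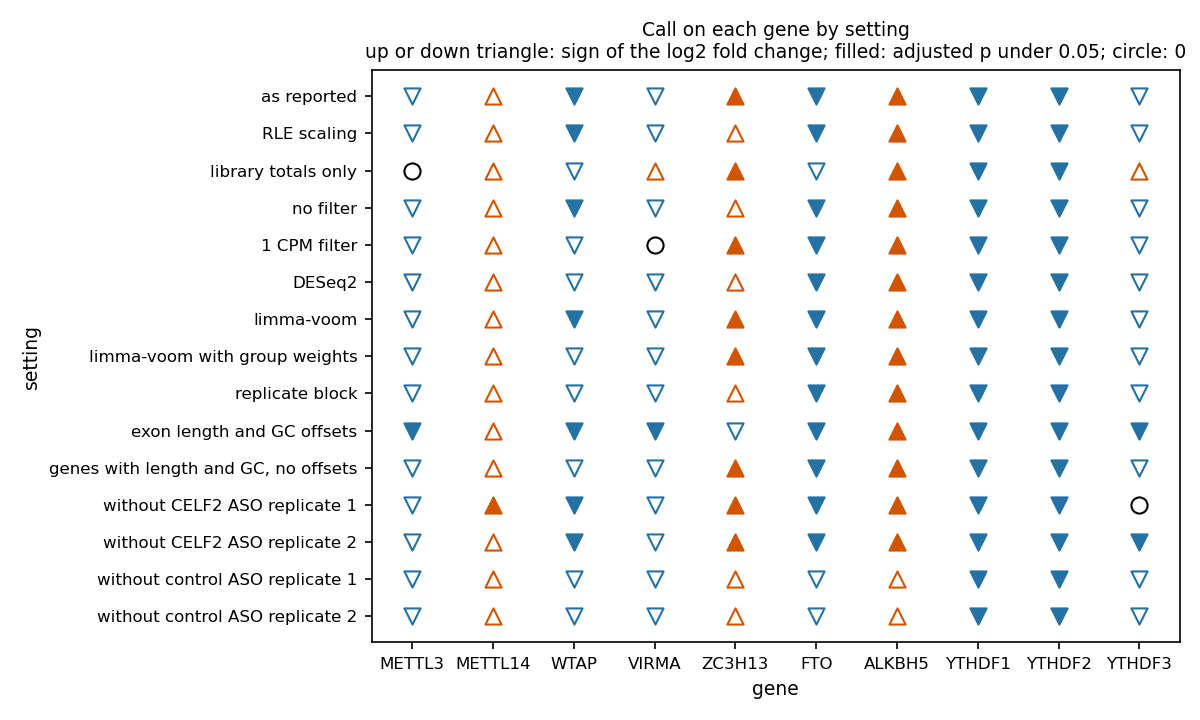
Call on each m6A gene (x axis) under each setting (y axis), with triangles for the sign of the log2 fold change and filled symbols for an adjusted p under 0.05, and circles for a value of 0. YTHDF1 and YTHDF2 are filled downward triangles in every setting, and the call on each of the other 8 genes changes in at least 1 setting.

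Related genes were described from 6 further lists holding 71 genes, all tested. Of coding genes 63.3% were called, 28% higher and 35.4% lower, with a median log2 fold change of -0.05. Of the 71 related genes together, 10 rose and 36 fell, which is 64.8% called, and their median was -0.31. Without control_LNA_ASO replicate 1 the number that rose was 5. Among other writers and regulators, 3 of 10 rose and 5 fell, 80% of the list against 63.3% of coding genes, with a median of -0.05. METTL5, the m6A methyltransferase of 18S ribosomal RNA, fell by 0.67 on the log2 scale to 24.4 and 22.8 CPM with the CELF2 ASO, against 36.2 and 38.7 CPM with the control ASO (edgeR adjusted p = 0.000689), while its activator TRMT112 had a log2 fold change of 0.24 and rose (adjusted p = 0.0256). METTL16, which methylates U6 small nuclear RNA and MAT2A mRNA, fell by 0.44 (adjusted p = 0.00255), and RBM15B, an adaptor that guides the writer complex to its RNAs, fell by 0.31 (adjusted p = 0.00721). ZNF217, a transcription factor that binds METTL3, rose by 0.57 (adjusted p = 0.000678), and METTL4, a methyltransferase of U2 small nuclear RNA, rose by 0.68 (adjusted p = 0.0091). The calls on RBM15B and TRMT112 were lost when either control library was left out, with adjusted p-values of 0.0981 and 0.0863 for RBM15B and 0.352 and 0.277 for TRMT112. RBM15B also lost its call with scaling by library totals (-0.19, adjusted p = 0.0593), and TRMT112 with no filter (0.19, adjusted p = 0.117) and DESeq2 (0.22, adjusted p = 0.113). With exon length and GC offsets the METTL4 value was 0.4 (adjusted p = 0.0439). Opposite-strand genes overlap 20% of METTL5 exon bases, 20% of those of RBM15B and 17.5% of those of TRMT112.

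**Figure D5:**
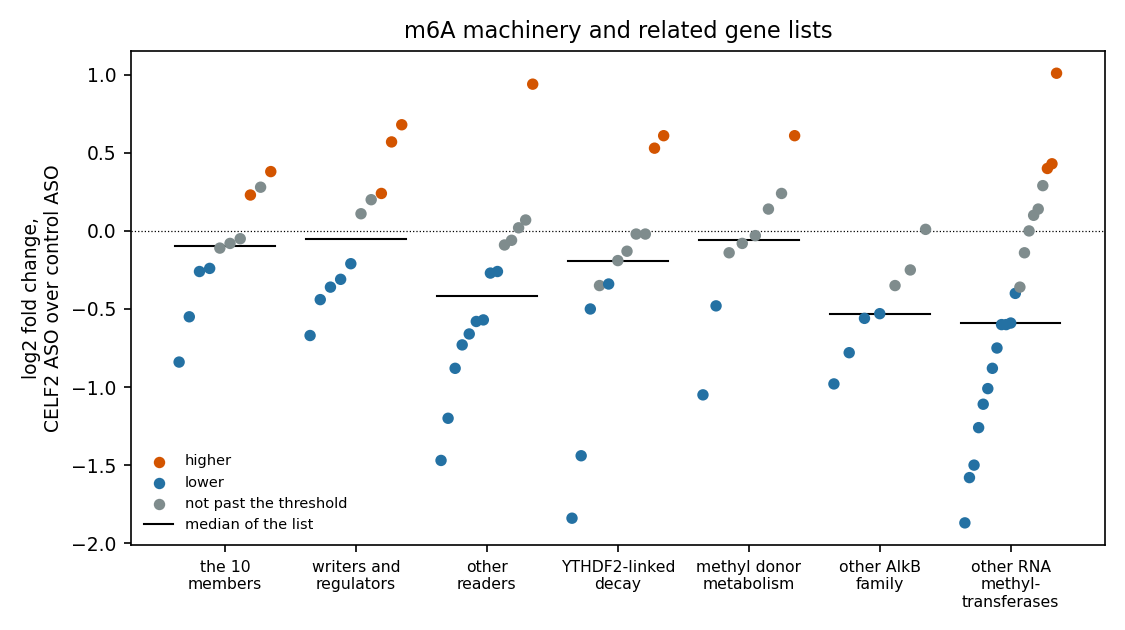
Log2 fold change of each gene in the m6A set and in the 6 related lists, 1 point a gene, coloured by call, with a bar at the median of each list. The medians are -0.1 for the 10 m6A genes, -0.42 for the other readers and -0.59 for the other RNA methyltransferases.

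Of 14 other m6A readers, 9 fell and 1 rose, with a median log2 fold change of -0.42. The 71.4% called is near the 63.3% of coding genes, of which 35.4% were lower and 28% higher. HNRNPA2B1, a nuclear protein whose RNA binding is affected by m6A, was at 341 and 380 CPM with the CELF2 ASO and at 964 and 1030 CPM with the control ASO. Its log2 fold change of -1.47 was the lowest of this list (edgeR adjusted p = 1.41e-05). RBMX, a nuclear protein that binds RNA opened by m6A, fell by 1.2 on the log2 scale (adjusted p = 1.78e-05), to 194 and 183 CPM with the CELF2 ASO, against 433 and 432 CPM with the control ASO. IGF2BP2, known for stabilising methylated mRNAs, fell by 0.88 (adjusted p = 9.4e-05), to 35.2 and 32.3 CPM with the CELF2 ASO, against 60.7 and 63.2 CPM with the control ASO. IGF2BP1 was the reader that rose, at low levels of 1.69 and 3.14 CPM with the CELF2 ASO against 1.18 and 1.32 CPM with the control ASO (log2 fold change 0.94, adjusted p = 0.0455), which did not pass without CELF2_LNA_ASO replicate 2 (0.43, adjusted p = 0.264) or in the fit lacking control_LNA_ASO replicate 1 (0.83, adjusted p = 0.0704). It was also lost with DESeq2 (adjusted p = 0.0906), limma-voom (adjusted p = 0.0733) and exon length and GC offsets (adjusted p = 0.0716).

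Of 11 factors linked to YTHDF2-mediated decay, 2 rose and 4 fell, and their median was -0.19. The 54.5% called compares with 63.3% of coding genes. POP1 and RPP40, subunits of RNase P and RNase MRP, were the lowest. POP1 was at 11.3 and 13.4 CPM with the CELF2 ASO and at 43.5 and 44.3 CPM with the control ASO (log2 fold change -1.84, edgeR adjusted p = 1.59e-05), and RPP40 at 6.53 and 5.65 CPM with the CELF2 ASO and at 16.5 CPM in both control libraries (-1.44, adjusted p = 8.51e-05). The helicase gene UPF1 fell by 0.5 (adjusted p = 0.000734). The deadenylase genes CNOT6L and CNOT8 rose, with log2 fold changes of 0.61 (adjusted p = 0.000434) and 0.53 (adjusted p = 0.00531), the second not past the threshold when control_LNA_ASO replicate 1 was omitted (0.39, adjusted p = 0.0725). With exon length and GC offsets CNOT6L was at 0.28 (adjusted p = 0.00882) and UPF1 at -0.32 (adjusted p = 0.00996). CNOT1, the scaffold that YTHDF2 binds, had a log2 fold change of -0.02 (adjusted p = 0.843).

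In methyl donor metabolism, 1 of 8 genes rose and 2 fell, and the list median was -0.06. The 37.5% called compares with 63.3% of coding genes. AHCY, which removes the methyltransferase inhibitor S-adenosylhomocysteine, was at 262 and 219 CPM with the CELF2 ASO and at 490 and 502 CPM with the control ASO (log2 fold change -1.05, edgeR adjusted p = 9.72e-05). AHCYL1, an AHCY relative that inhibits the IP3 receptor, had a log2 fold change of 0.61 (adjusted p = 0.00147), and the methionine synthase reductase gene MTRR fell by 0.48 (adjusted p = 0.00623), not past the threshold when control_LNA_ASO replicate 1 was omitted (-0.44, adjusted p = 0.0629). MAT2A, which makes the methyl donor S-adenosylmethionine, was at 206 and 205 CPM with the CELF2 ASO and at 213 and 209 CPM with the control ASO (log2 fold change -0.03, adjusted p = 0.697).

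Beyond ALKBH5 and FTO, 4 of 7 genes of the AlkB family fell and none rose, the list median being -0.53. The 57.1% called compares with 63.3% of coding genes. ALKBH4 fell by 0.98 on the log2 scale (edgeR adjusted p = 0.00055), the tRNA-modifying enzyme gene ALKBH8 by 0.78 (adjusted p = 0.00185) and the DNA repair enzyme gene ALKBH2 by 0.53 (adjusted p = 0.00178). Opposite-strand genes overlap 25.3% of the ALKBH4 exon bases (ORAI2), 16.8% of those of FTSJ3 (PSMC5) and 12.4% of those of MAT2A (GGCX). Of 21 other RNA methyltransferase genes, 12 fell and 3 rose, and the list median was -0.59. The 71.4% called is again near the 63.3% of coding genes, of which 35.4% were lower and 28% higher. WDR4, the partner of the tRNA m7G methyltransferase METTL1, was at 29.6 and 23.4 CPM with the CELF2 ASO and at 96.3 and 97.2 CPM with the control ASO (-1.87, adjusted p = 1.71e-05). FTSJ3, a ribosomal RNA methyltransferase, fell by 1.5 (adjusted p = 1.02e-05) and fibrillarin, FBL, by 1.11 (adjusted p = 1.95e-05). The genes that rose were the cap methyltransferases CMTR1 (1.01, adjusted p = 0.000642) and CMTR2 (0.43, adjusted p = 0.00724) and the tRNA m3C methyltransferase METTL6 (0.4, adjusted p = 0.0133). The calls on CMTR2 and METTL6 were lost when either control library was left out and with exon length and GC offsets.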

How the data were processed

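The authors deposited whole-number read counts per Ensembl gene, and the values carry no sign of scaling. The tools named in the submitters' processing notes are STAR 2.7.11b, featureCounts 2.0.8, Subread, Salmon 1.10.0 and bcl2fastq, with GRCh38 as the genome. Which annotation and strand setting were used, and how multi-mapping reads were treated, is not given in the sources used here. Per the labels, poly(A) selection and ribosomal RNA removal are both named, in different fields. The 97 rows that were not genes held 1 to 3 counts per library and were left out.

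The test was run with edgeR 4.0.16 (R 4.3.3) on the deposited counts: filterByExpr (minimum count 10, minimum total 15), TMM scaling, robust quasi-likelihood test, two-sided, no covariate, Benjamini-Hochberg adjustment over all 19511 genes tested. Standard errors are the absolute log2 fold change over the square root of F. DESeq2 1.42.0 and limma 3.58.1 were alternatives. Counts of the 2 libraries of a pair differed beyond sampling noise (chi-square per degree of freedom 18.5 for CELF2 ASO, 3.38 for control). Exon lengths and positions came from GENCODE 29 on GRCh38. The edgeR fit, with and without exon length and GC offsets, DESeq2 and limma-voom were tested on simulated data. The simulation gave both groups the same spread, unlike the real pairs.

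Members and lists were chosen with earlier results of these data known. Named from the other lists were up to 3 genes in each direction with the smallest adjusted p. CNOT1 and MAT2A were named after their values were seen.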

Additional observations from a re-analysis of the deposited data

How the results depend on the processing

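The calls on YTHDF1, YTHDF2 and CELF2 kept their direction and side of the threshold under all 14 alternatives, CELF2 between -1.55 and -1.16 on the log2 scale. The number of the 10 genes that rose, 2 as reported, was 1 with RLE scaling, no filter, DESeq2, exon length and GC offsets and the replicate block. The number that fell, 4 as reported, was 2 with library totals only and 7 with exon length and GC offsets. Leaving out 1 library gave 0 to 3 genes that rose and 2 to 5 that fell, and for the 71 related genes 5 to 14 that rose and 30 to 40 that fell. Across all genes, leaving out 1 library gave 4091 to 6105 higher and 4511 to 6218 lower, against 5372 and 5451 as reported. Library totals only moved the median of all genes by 0.12 on the log2 scale and gave 6299 higher and 4530 lower genes. Signs turned for VIRMA (0.07) and YTHDF3 (0.04) with library totals only and for ZC3H13 (-0.05) with exon length and GC offsets. Values of 0 to the digits given were reached by METTL3 with library totals only and by VIRMA with the 1 CPM filter. None of these was past the threshold, and the cause was not tested. Over 17699 genes, Spearman's rho of the log2 fold change was -0.189 with GC content and 0.0553 with exon length, as a description. The replicate 1 minus 2 difference had a rho with GC content of 0.215 within the CELF2 ASO pair, as large as that between the groups, and of -0.0731 within the control pair.

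The number in the labels does not pair the libraries by any label, and the replicate 1 minus 2 differences of the 2 groups correlated at 0.0343 over genes. With that number as a replicate block, 1 gene of the 10 rose and 3 fell, WTAP (adjusted p = 0.0501) and ZC3H13 (adjusted p = 0.0598) losing their calls, and 10 of the 71 related genes rose and 35 fell. METTL14, with the fewest reads of the 10 genes, had a 95% interval of -0.07 to 0.63. In fits that leave out a control library, the CELF2 ASO pair sets the spread, and in those that leave out a CELF2 ASO library the control pair does, the lone library being assumed to vary like the other group.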
